A study of Mus musculus with 12 samples.

Results

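Somatostatin (Sst), neuropeptide Y (Npy), cholecystokinin (Cck), prepronociceptin (Pnoc), neuronal nitric oxide synthase (Nos1) and the neurexophilins Nxph1 and Nxph2 were followed through 25 clusters of nuclei from the embryonic mouse cortex. These 7 genes were chosen by name as early interneuron peptides, Nos1 and neurexophilins, and all 7 are among the 23513 genes in the tables. The name did not hold for every member. Nos1 was highest in projection neuron clusters, and Cck was highest in a cluster that the study did not assign to interneurons or projection neurons.

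Pregnant C57BL/6J mice were injected i.p. with saline or with 2.5 g/kg EtOH, given at 25% v/v in saline, once daily on 6 days from E8.5 to E13.5. Whole cortices of single embryos were then taken for single nucleus RNA sequencing (snRNAseq), on E14 in the labels and on E14.5 in the methods. The tables hold 5 saline embryos of dams S1 and S2 and 6 EtOH embryos of dams E1 and E2, with S1 and E1 in batch 1 and S2 and E2 in batch 2. Embryo S2-3 was not used here. All dams were injected, and the p-values below take the embryos of a treatment as independent although they come from 2 dams each.

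Of 50550 nuclei, the saline embryos gave 4437 to 7639 each and the EtOH embryos 2346 to 4928. Total UMIs lay between 44017566 and 83061737 per saline embryo and between 14078316 and 38034349 per EtOH embryo. Median UMIs per nucleus were 6325 to 9051 in saline and 4072 to 6911 in EtOH, so depth differed between the treatments and cannot be told apart from them. Saline embryo S2-4 had the lowest saline median, at 6325, within the EtOH range, and a member result whose call changes without it is given both ways. The other saline medians were 8365 to 9051, all above the EtOH range. In fits without S2-4 the depth of the treatments therefore did not overlap at all. Of 50226 distinct cell barcodes, 314 (0.625%) were found in more than 1 library. The 7 interneuron clusters (5, 7, 10, 13, 15, 18 and 23) held 18.1% to 37.7% of the nuclei of a saline embryo and 18.98% to 33.1% of those of an EtOH embryo.

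Cortical interneurons are born in the ganglionic eminences of the ventral telencephalon and migrate into the cortex, where they release GABA. In the adult cortex Sst marks one of the main interneuron classes that arise in the medial eminence, and Npy and Nos1 overlap with it in part. Peptide genes of this kind are switched on gradually as the cells mature. Neurexophilins are secreted glycoproteins that bind the extracellular part of alpha-neurexins, which are adhesion proteins of the presynaptic side.

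The genes differ widely in size, which matters for a count of nuclear RNA. On GRCm38 in GENCODE M21, Sst lies at chr16:23889573-23890958 on the minus strand (1386 bases), Npy at chr6:49822710-49829507 on the plus strand (6798 bases) and Cck at chr9:121489824-121495694 on the minus strand (5871 bases). Pnoc lies at chr14:65400673-65425472 on the minus strand (24800 bases). Nos1 at chr5:117781032-117958840 (177809 bases), Nxph1 at chr6:8948431-9249032 (300602 bases) and Nxph2 at chr2:23321246-23401973 (80728 bases) are all on the plus strand. Exons make up 1.58% of Nxph1 and 52.0% of Sst. Levels below are CPM, a gene's UMIs scaled to a fixed total of UMIs of the same nuclei, and were not scaled by length, so they are compared between clusters and embryos of 1 gene only. Nos1 overlaps Gm26995 on the other strand, and whether the counting used the strand is not given in the sources used here, so reads of these 2 genes may not be separated.

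Sst, Npy, Nxph1 and Nxph2 shared their highest cluster, and DNA just before the RefSeq gene starts of Sst, Npy and Nxph2 is shown for that reason. The window of Nxph1 lies inside its GENCODE M21 gene span and is not shown. A short stretch of the Sst promoter, at chr16:23890874-23890903 on the minus strand, holds a cAMP response element, TGACGTCA, in capitals, with its first base at position -48 from the RefSeq start. The stretch lies within the longer gene span of GENCODE M21. The 250 bases before the starts of Npy (chr6:49822460-49822709, plus strand) and Nxph2 (chr2:23320996-23321245, plus strand) are given whole, all 5′ to 3′ from RefSeq on GRCm38.p6.
Sst: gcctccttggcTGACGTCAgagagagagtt
Npy: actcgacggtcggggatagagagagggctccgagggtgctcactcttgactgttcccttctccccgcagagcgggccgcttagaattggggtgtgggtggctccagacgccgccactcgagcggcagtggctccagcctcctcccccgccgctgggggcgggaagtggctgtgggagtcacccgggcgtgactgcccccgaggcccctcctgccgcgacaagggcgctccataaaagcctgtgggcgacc
Nxph2: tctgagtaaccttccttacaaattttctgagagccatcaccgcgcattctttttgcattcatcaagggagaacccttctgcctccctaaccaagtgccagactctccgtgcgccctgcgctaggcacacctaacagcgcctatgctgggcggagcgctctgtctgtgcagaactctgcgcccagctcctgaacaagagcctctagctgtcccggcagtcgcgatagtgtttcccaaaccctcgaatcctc

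TGACGTCA, which reads the same on both strands, was found in 506 of 32536 promoter windows of 250 bases (1.56%) and, among the 6 members with a RefSeq window, in Sst. TATAAA, searched on both strands, was in 12.3% of windows, and the homeodomain core TAATTA, which also reads the same on both strands, was in 4.84%. No member window held TATAAA or TAATTA. These are matches of letters in a fixed window and no more.

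**Figure D1:**
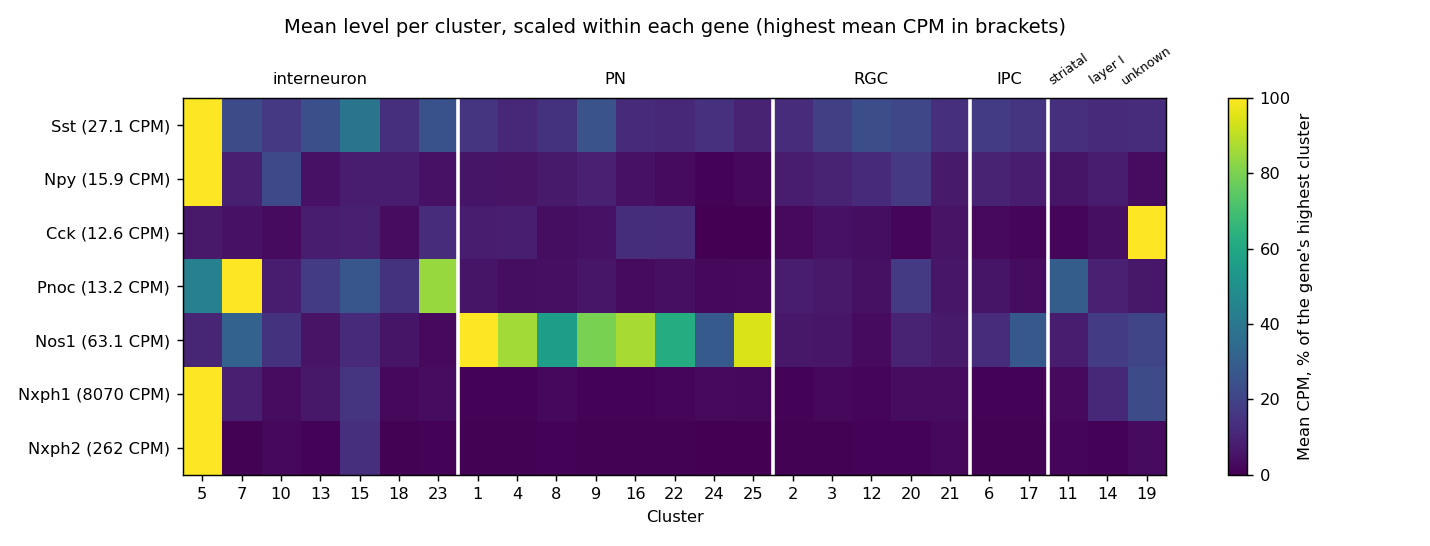
Mean level of the 7 genes in each of the 25 clusters (columns, grouped by the study's cell classes), as a percentage of the gene's own highest cluster, whose mean CPM over embryos stands in brackets. Cluster 5 was highest for Sst (27.1 CPM), Npy (15.9 CPM), Nxph1 (8070 CPM) and Nxph2 (262 CPM), Cluster 7 for Pnoc, Cluster 1 for Nos1 and Cluster 19 for Cck.

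Sst, the inhibitory peptide hormone that names the class, was highest in Cluster 5, with 27.1 ± 5.10 CPM (SD, n = 11 embryos). Cluster 15, also an interneuron cluster, followed at 10.5 ± 4.40 CPM, and the step from Cluster 5 to Cluster 15 was larger than the spread between embryos. The other 23 clusters lay between 2.66 and 6.93 CPM, and no neighbours in that order differed beyond their spread. Of 7 transcription factors that mark interneurons of the medial eminence, 5 were highest in Cluster 5, among them Lhx6, Sox6, Maf and Satb1. Lhx8 (171 CPM) and Nkx2-1 (56.0 CPM) were highest in Cluster 15. Of the caudal eminence markers, Adarb2 was also highest in Cluster 15, at 18432 ± 1737 CPM, and Prox1, Nr2f2, Sp8 and Htr3a in Cluster 23. Cluster 15 was thus the highest cluster for markers of both eminences. Clusters were made from these same counts, so the order of clusters is a description with no test.

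Few nuclei carried Sst. In Cluster 5, 512 of 3809 nuclei (13.4%) had at least 1 UMI, 66.8% of these had exactly 1, and the highest nucleus had 8. With each nucleus thinned at random to 2000 UMIs, which left out 177 saline nuclei (0.583%) and 210 EtOH nuclei (1.04%), the share was 4.61% (exact 95% interval 3.96% to 5.33%, counting error only). The same share, in cells outside the interneuron lineage, was 1.04% in the projection neurons of Cluster 1 and 0.922% in the radial glia of Cluster 2. Over the clusters not classed as interneurons it ran from 0.18% in Cluster 22 to 2.42% in Cluster 25, where 3 of 124 nuclei carried Sst. How much of these shares was background was not tested. Median depths of the unthinned nuclei were 6652 UMIs in Cluster 5, 6608 in Cluster 1 and 7486 in Cluster 2. Interneuron clusters held 49.6% of the 2646 Sst UMIs and projection neurons 21.01%.

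Sst in Cluster 5 measured 20.5, 18.3, 28.2, 33.8 and 26.6 CPM in saline embryos S1-1, S1-2, S2-1, S2-2 and S2-4. In the EtOH embryos it measured 34.9 (E1-1), 27.2 (E1-2), 27.2 (E2-1), 23.4 (E2-2), 31.3 (E2-3) and 27.2 CPM (E2-4). The groups overlapped, and the lowest embryos were the 2 saline embryos of batch 1. The fitted log2 fold change of EtOH over saline was 0.12 ± 0.15 (SE; edgeR, Benjamini-Hochberg adjusted p = 0.671). Within batch 1 the log2 ratio of the group means was 0.68 (n = 2 and 2) and within batch 2 it was -0.12 (n = 3 and 4), so the direction did not hold in both batches. Sst in Cluster 15 was 7.29 ± 1.33 CPM in saline (n = 5) and 13.1 ± 4.35 CPM in EtOH (n = 6), with overlapping groups (log2 fold change 0.76 ± 0.30, adjusted p = 0.251). It passed the filter on low counts in 9 clusters and was called in none of them.

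Over the 25 clusters, 54 of the 175 pairs of a member and a cluster passed the filter and were tested, and 1 of the 54 was called, against 0.792% of the 217253 tests over all genes. To be called, a pair had to reach an adjusted p below 0.05 with a fold change past a set limit. The filter kept Sst in 9 clusters, Npy in 1, Cck in 0, Pnoc in 2, Nos1 in 15, Nxph1 in 25 and Nxph2 in 2. At an unadjusted p under 0.05 there were 17 of 54, beside 37725 of the 217253 tests over all genes. In the 7 interneuron clusters summed, 0 of the members was called, where 4.83% of all genes were, and in all nuclei summed 0 was called, where 12.1% of all genes were. DESeq2 and limma voom gave 0 in both sums too, and 1 member, Npy in the interneurons, had an unadjusted edgeR p under 0.05. In such sums, fewer nuclei of a type and less RNA per nucleus cannot be told apart. These shares over all genes moved with single embryos. Leaving out any 1 embryo other than S2-4 gave 89 to 750 calls over the clusters in place of 1721, and 0 to 695 in the summed interneurons in place of 701, with 0 without S1-1, S1-2, S2-1, E2-1 or E2-2. Without embryo S2-4 the member calls rose to 9 pairs of a member and a cluster, but the share over all genes rose too, to 8.78% of 217112 tests. The 9 were Nxph1 in 7 clusters, Npy in Cluster 5 and Nos1 in Cluster 8. Without S2-4 every saline embryo had a higher median of UMIs per nucleus than every EtOH embryo, so treatment and depth were fully confounded there.

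**Figure D2:**
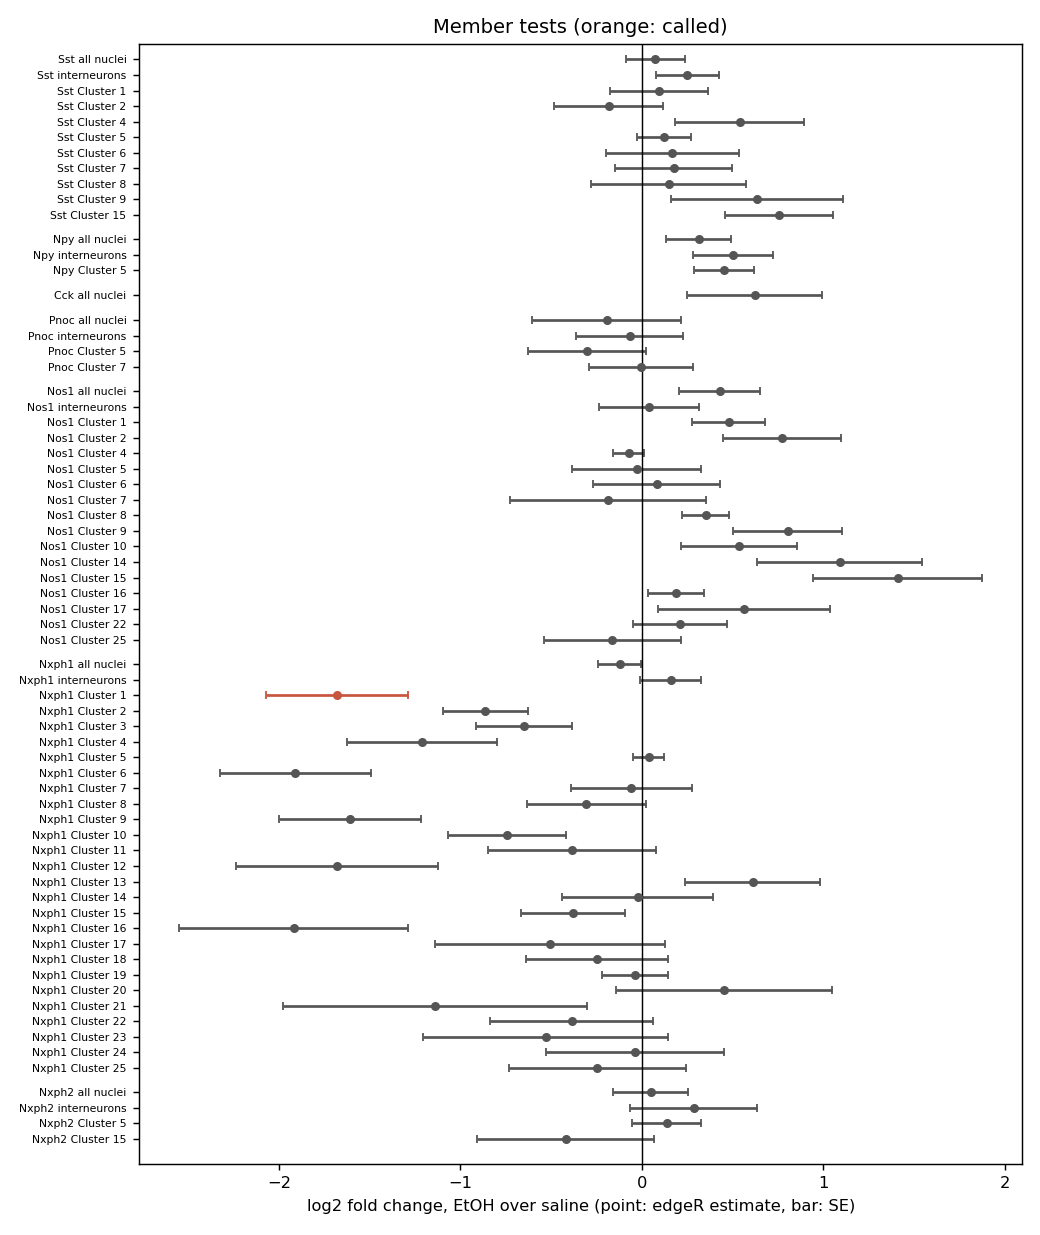
Fitted log2 fold change of EtOH over saline (x axis, point) with its SE (bar) for each member in each cluster where it was tested, in the summed interneuron clusters and in all nuclei (rows). Nxph1 in Cluster 1 (-1.68) was the only pair called, and Nxph1 lay below 0 in 22 of 25 clusters, which share the same embryos.

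Npy, an inhibitory peptide with its own family of receptors, was highest in Cluster 5, at 15.9 ± 4.02 CPM (n = 11). The next cluster, interneuron Cluster 10, had 3.53 ± 3.52 CPM, and this step was larger than the spread. The remaining clusters lay at or below 2.61 CPM, and no neighbours among them differed beyond their spread. In Cluster 5, 343 of 3809 nuclei (9.005%) carried at least 1 Npy UMI and the highest carried 8. After thinning the share was 3.15%, against 0.115% in Cluster 1 and 0.277% in Cluster 2. Of 962 Npy UMIs, 64.1% came from the interneuron clusters.

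The 5 saline embryos had Npy levels of 13.6 (S1-1), 11.3 (S1-2), 10.9 (S2-1), 12.7 (S2-2) and 16.5 CPM (S2-4) in Cluster 5. The 6 EtOH embryos had 20.5 (E1-1), 12.4 (E1-2), 22.2 (E2-1), 20.1 (E2-2), 15.7 (E2-3) and 18.8 CPM (E2-4). In 26 of the 30 pairs of a saline and an EtOH embryo the EtOH embryo was higher, and the groups overlapped through S2-4, the highest saline embryo, and E1-2, the lowest EtOH embryo. The log2 fold change was 0.45 ± 0.16 (adjusted p = 0.112) and did not pass. Within batches the log2 ratio of the means was 0.40 in batch 1 and 0.52 in batch 2. Without S2-4 it was 0.53 with an adjusted p of 0.0349 and passed. In the same cluster the 6 striatal markers summed to 282 to 373 CPM in saline and 146 to 260 CPM in EtOH, with 2 of 4 tested called lower, where 2.01% of all genes tested in Cluster 5 were called, and the 3 microglia markers to 5.28 to 7.67 CPM and 9.31 to 13.3 CPM, with 0 of 1 called. Neither of these sums overlapped between the groups, while the sums of the other marker lists did. Over all nuclei P2ry12 held 5220 UMIs of the microglia list, Ly86 228 and Csf1r 319. P2ry12 was highest in the striatal Cluster 11, at 76.3 ± 28.8 CPM, so this sum does not stand for microglia alone. Of 7 interneuron markers tested in Cluster 5, 1 was called higher. The part of these lists in the Npy level was not tested.

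In the summed interneuron clusters Npy was 4.42 ± 1.58 CPM in saline and 6.71 ± 1.44 CPM in EtOH, with the EtOH embryo higher in 27 of 30 pairs. The log2 fold change was 0.50 ± 0.22 (adjusted p = 0.156), and 0.64 without S2-4 (adjusted p = 0.0358), where 17.1% of all genes were called. The share of thinned interneuron nuclei with an Npy UMI was 0.964% ± 0.395 in saline (n = 5) and 1.49% ± 0.441 in EtOH (n = 6), a difference of 0.526 percentage points (two-sided exact permutation test over 462 splits, p = 0.0714). With labels exchanged only within batches, the exact p was 0.105.

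Cck, a peptide that marks a later class of interneurons and is also made by cortical projection neurons, was highest in Cluster 19, at 12.6 ± 6.52 CPM (n = 11). The study left Cluster 19 unnamed because it expressed neither Neurod2 nor Gad2. No other cluster passed 1.64 CPM. The step to the next cluster was larger than the spread. In Cluster 19, 66 of 662 nuclei (9.97%) carried Cck, up to 5 UMIs. After thinning the share was 2.12% (exact 95% interval 1.16% to 3.52%), against 0.184% in Cluster 1 and 0.0461% in Cluster 2. Over the whole series there were 352 Cck UMIs, 26.4% of them in Cluster 19, 34.9% in projection neurons and 22.4% in interneurons.

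The Cck level of Cluster 19 was 7.58 (S1-1), 9.47 (S1-2), 4.89 (S2-1), 16.1 (S2-2) and 15.3 CPM (S2-4) in saline embryos. In EtOH embryos it was 11.1 (E1-1), 0 (E1-2), 21.1 (E2-1), 18.5 (E2-2), 16.7 (E2-3) and 17.8 CPM (E2-4). These levels rest on 0 to 21 UMIs per embryo and the groups overlapped. The 0 of E1-2 came from 27 nuclei, where 3 UMIs would be 12.6 CPM. Cck passed the filter in no cluster and not in the summed interneurons. In all nuclei summed it was 0.680 ± 0.376 CPM in saline and 1.06 ± 0.461 CPM in EtOH (log2 fold change 0.62 ± 0.37, adjusted p = 0.235).

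Pnoc encodes the precursor of nociceptin, an opioid-like peptide. Its level was 13.2 ± 5.31 CPM in Cluster 7 (n = 11) and 11.1 ± 9.27 CPM in Cluster 23 (n = 10 embryos with at least 10 nuclei), both interneuron clusters, and these did not differ beyond their spread. Cluster 5 came next at 5.71 CPM, then the striatal Cluster 11 at 3.89 CPM and Cluster 15 at 3.51 CPM, again with no step between neighbours larger than their spread. Interneuron clusters held 73.9% of its 1208 UMIs. In Cluster 7, 425 of 3544 nuclei (11.99%) carried Pnoc, with at most 5 UMIs. The thinned share was 2.70% in Cluster 7 and 2.72% in Cluster 23, against 0.161% in Cluster 1.

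Saline embryos had Pnoc levels of 15 (S1-1), 15.4 (S1-2), 17.4 (S2-1), 8.28 (S2-2) and 10.9 CPM (S2-4) in Cluster 7. EtOH embryos had 18.5 (E1-1), 0 (E1-2), 13.1 (E2-1), 16.9 (E2-2), 12.9 (E2-3) and 16.4 CPM (E2-4). E1-2 stood apart at 0 UMIs in 55 nuclei, the fewest Cluster 7 nuclei of any embryo, where 3 UMIs would be 6.01 CPM, and the other EtOH embryos lay from 12.9 to 18.5 CPM. The log2 fold change was -0.0039 ± 0.29 (adjusted p = 0.998).

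**Figure D3:**
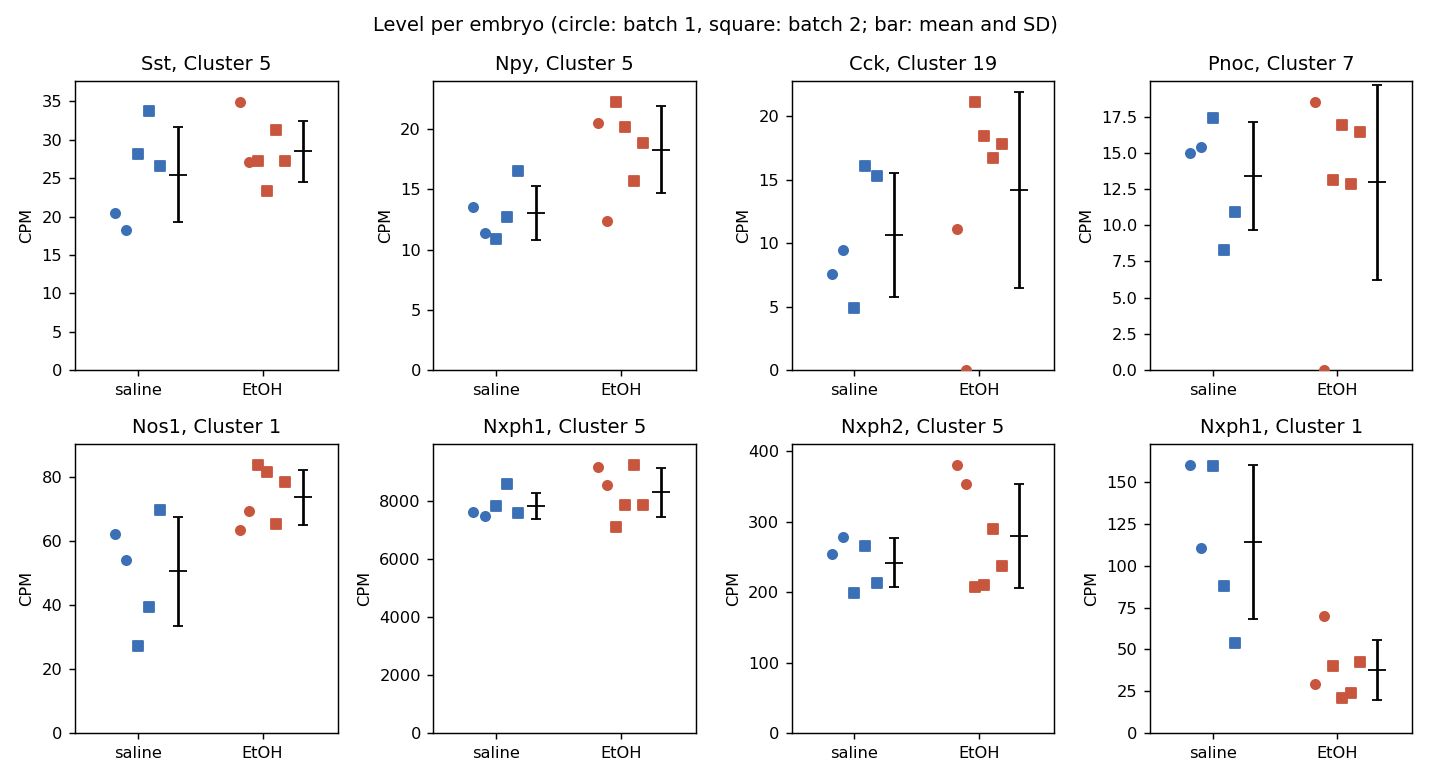
CPM per embryo (y axis) of each member in its highest cluster, and of Nxph1 in Cluster 1, in saline and EtOH embryos (circles batch 1, squares batch 2), with the mean and SD beside the points. The groups overlap in every panel, and Nxph1 in Cluster 1 lies between 53.9 and 160 CPM in saline and between 21.03 and 70.1 CPM in EtOH.

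Nos1 makes nitric oxide, which signals through soluble guanylate cyclase. In this cortex projection neuron clusters held 77.2% of the 9247 Nos1 UMIs and interneuron clusters 11.4%. Reads of Gm26995 may be among these. The 7 highest clusters were all projection neurons: Cluster 1 (63.1 ± 17.4 CPM, n = 11), Cluster 25 (59.6 ± 18.4, n = 7), Cluster 16 (54.9 ± 11.3), Cluster 4 (54.3 ± 5.88), Cluster 9 (50.5 ± 20.2), Cluster 22 (39.1) and Cluster 8 (35.01). No neighbours in this order differed beyond their spread, and Cluster 25 came first with counts pooled over embryos or with saline embryos alone. The remaining projection neuron cluster, Cluster 24, had 17.8 ± 25.55 CPM (n = 10), below interneuron Cluster 7. After thinning, 11.2% of Cluster 1 nuclei and 8.85% of Cluster 9 nuclei carried Nos1, against 0.927% in interneuron Cluster 5 and 0.600% in radial glia Cluster 2.

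Interneuron Cluster 7 came eighth, at 19.8 ± 15.98 CPM, and its Nos1 was uneven. Of its 3544 nuclei, 19, from 9 embryos, carried 5 or more Nos1 UMIs, up to 22, while Cluster 1 reached at most 7 UMIs and had 22 such nuclei among 4366. In Cluster 4 there were 48 such nuclei, up to 13 UMIs. By embryo the Cluster 7 level lay between 5.04 CPM (E1-1, 3 UMIs) and 62.1 CPM (E1-2). In E1-2, 22 of the 31 UMIs came from 1 nucleus.

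Nos1 in Cluster 1 was 62.1 (S1-1), 54.0 (S1-2), 27.2 (S2-1), 39.4 (S2-2) and 69.6 CPM (S2-4) in saline. In EtOH it was 63.4 (E1-1), 69.5 (E1-2), 83.6 (E2-1), 81.5 (E2-2), 65.1 (E2-3) and 78.3 CPM (E2-4). EtOH embryos were higher in 27 of 30 pairs, and the groups overlapped through S2-4, the highest saline embryo. The log2 fold change was 0.48 ± 0.20 (adjusted p = 0.174), and 0.58 without S2-4 (adjusted p = 0.0817). The log2 ratio of the means was 0.19 within batch 1 and 0.77 within batch 2, where S2-1 and S2-2 were the lowest of all 11 embryos.

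Of the other projection neuron clusters, Cluster 9 had 34.4 ± 17.2 CPM in saline and 63.9 ± 10.1 CPM in EtOH (log2 fold change 0.80 ± 0.30, adjusted p = 0.164). Cluster 8 had 19.2 to 35.6 CPM in saline and 37.3 to 43.5 CPM in EtOH, so these groups did not overlap (log2 fold change 0.35 ± 0.13, adjusted p = 0.125). The share of all genes whose groups did not overlap was not counted, for this or any other set of nuclei. In Cluster 8, 2354 of 10748 genes had an unadjusted edgeR p under 0.05. Without S2-4 the Cluster 8 difference was 0.40 with an adjusted p of 0.0419 and passed. Cluster 4 gave 55.2 ± 6.77 and 53.5 ± 5.58 CPM (log2 fold change -0.07 ± 0.09). Whether these clusters differed from each other in their response was not tested. In all nuclei summed the EtOH embryo was higher in 29 of 30 pairs, with 18.4 ± 6.36 CPM in saline and 26.1 ± 2.89 CPM in EtOH (adjusted p = 0.185), and beside it the summed projection neuron markers lay between 369 and 732 CPM in saline and between 605 and 793 CPM in EtOH. The part of the cell mix in this difference was not tested. In the summed interneurons Nos1 was 9.20 ± 3.64 and 9.76 ± 3.26 CPM. Interneuron Cluster 15 had 4.31 ± 2.68 CPM in saline and 10.2 ± 7.59 CPM in EtOH (log2 fold change 1.41 ± 0.47, adjusted p = 0.171). Layer I Cluster 14 had a log2 fold change of 1.09 ± 0.46 (adjusted p = 0.297). Over the 15 clusters tested, the fitted value of Nos1 was above 0 in 11 and below 0 in 4. An unadjusted edgeR p under 0.05 was found in 6 of them, and none was called. Over all genes and clusters 37725 of 217253 tests had such a p. The clusters share embryos and libraries, so they are not separate replicates of a direction.

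Nxph1 was the deepest counted member, with 371180 UMIs, 82.2% of them in interneuron clusters. Cluster 5 had 8070 ± 704 CPM (n = 11), Cluster 19 had 1868 ± 411 CPM, Cluster 15 had 1203 ± 441 CPM, the layer I Cluster 14 had 924 ± 417 CPM and Cluster 7 had 709 ± 243 CPM. The steps from Cluster 5 to 19 and from 19 to 15 were larger than the spread. The lowest was projection neuron Cluster 16, at 65.6 ± 62.9 CPM. In Cluster 5, 3627 of 3809 nuclei (95.2%) carried Nxph1, with a median of 52 UMIs among those and a highest count of 756. After thinning the share was 92.2%, against 11.8% in Cluster 1 and 12.2% in Cluster 2.

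In Cluster 5 the Nxph1 level was 7612 (S1-1), 7466 (S1-2), 7805 (S2-1), 8591 (S2-2) and 7576 CPM (S2-4) in saline. It was 9155 (E1-1), 8554 (E1-2), 7092 (E2-1), 7847 (E2-2), 9224 (E2-3) and 7852 CPM (E2-4) in EtOH. The groups overlapped, with the lowest and the highest embryo both in EtOH. The log2 fold change of 0.04 ± 0.09 (adjusted p = 0.84) did not pass. Nxph1 in Cluster 19 was likewise close in both groups, with a log2 fold change of -0.04 ± 0.18 (adjusted p = 0.971).

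In Cluster 1, which holds projection neurons, it was 160 (S1-1), 111 (S1-2), 159 (S2-1), 88.1 (S2-2) and 53.9 CPM (S2-4) in saline. In EtOH it was 29.1 (E1-1), 70.1 (E1-2), 40.2 (E2-1), 21.03 (E2-2), 23.9 (E2-3) and 42.7 CPM (E2-4). All EtOH embryos lay below 4 of the 5 saline embryos, and the groups overlapped through S2-4 and E1-2. This was the 1 pair of a member and a cluster called, with a log2 fold change of -1.68 ± 0.39 (edgeR, Benjamini-Hochberg adjusted p = 0.049).

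The call stood close to its threshold and did not hold in several other fits. The adjusted p was 0.0571 with batch as a term, 0.0757 with limma voom and the dam as a random block, 0.146 with the replicate block and 0.189 with counts summed per dam, with log2 fold changes from -1.67 to -1.53. Leaving out any 1 embryo other than S2-4 raised the adjusted p to between 0.0594 and 0.126, and without S2-4 it was 0.00476, with a log2 fold change of -1.87. The sign was the same in each of these fits. With nuclei thinned to 2000 UMIs the log2 fold change was -1.78 (adjusted p = 0.0463). The fitted log2 fold change of Nxph1 was below 0 in 22 of the 25 clusters, and 9 of the 25 had an unadjusted edgeR p under 0.05, beside 37725 of the 217253 tests over all genes. The clusters come from the same embryos and libraries, so they are not separate replicates of this direction. How often other genes keep 1 sign over the clusters was not counted. In Clusters 14, 19 and 24, where the fitted value was between -0.04 and -0.02, the group means were about equal or higher in EtOH. The nearest to a call were Cluster 6 (-1.91 ± 0.42, adjusted p = 0.0675), Cluster 9 (-1.61 ± 0.39, adjusted p = 0.075) and Cluster 2 (-0.86 ± 0.23, adjusted p = 0.0778). These clusters are intermediate progenitors, projection neurons and radial glia. In Cluster 6 the EtOH embryos lay between 32.8 and 47.8 CPM while saline S2-4, at 41.6 CPM, lay among them and the other 4 saline embryos lay between 111 and 261 CPM. Without S2-4, Nxph1 was called lower in Cluster 6 (-2.15, adjusted p = 0.000279), Cluster 9 (-1.83, adjusted p = 0.000413), Cluster 2 (-0.97, adjusted p = 0.018), Cluster 12 (-1.92, adjusted p = 0.023), Cluster 4 (-1.40, adjusted p = 0.0323) and Cluster 16 (-2.20, adjusted p = 0.0406), as well as in Cluster 1. With counts summed per dam it was called lower in Clusters 3, 6, 9 and 12.

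**Figure D4:**
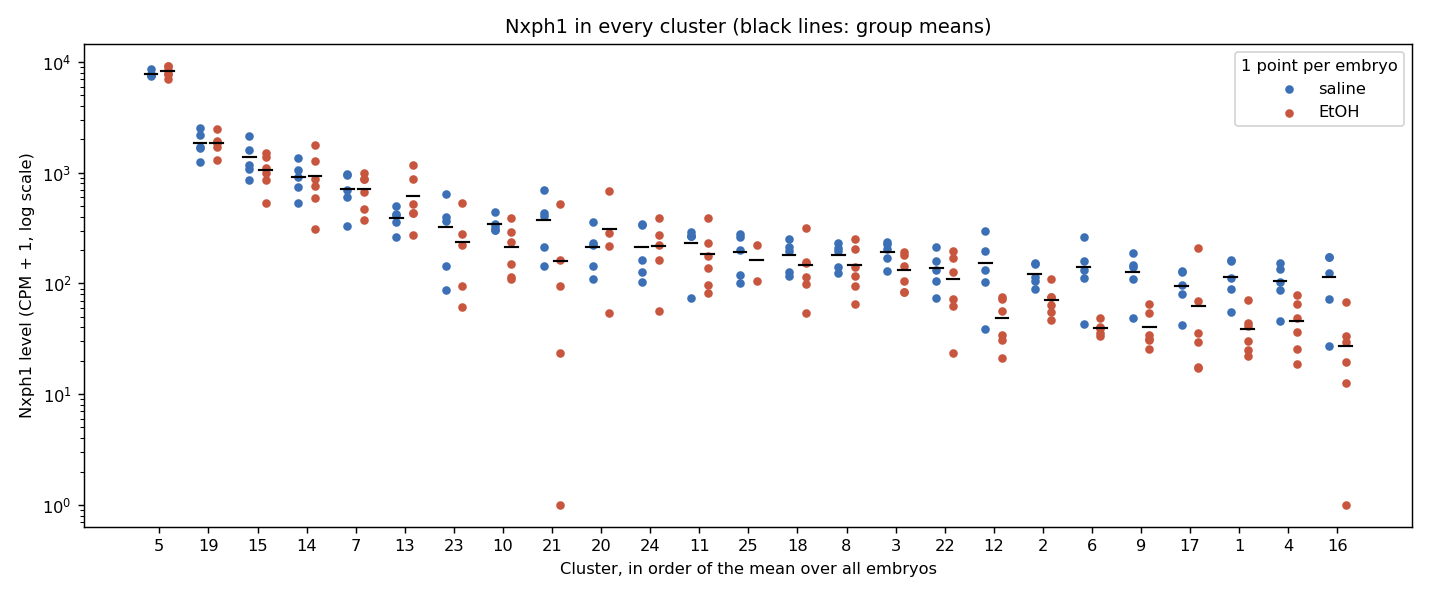
Nxph1 level per embryo (points, CPM + 1 on a log axis) in the 25 clusters, ordered by the mean over all embryos, with group means as black lines. Saline and EtOH lie together in Cluster 5 (7810 and 8287 CPM), and the group means lie apart in Cluster 1 (114 and 37.8 CPM), the 1 cluster called. The groups overlap in all 25 clusters.

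Set against Cluster 5 of the same embryos, the log2 ratio of the Cluster 1 level to the Cluster 5 level was -6.20 ± 0.67 in saline (n = 5) and -7.89 ± 0.68 in EtOH (n = 6). The pair of clusters was chosen for this contrast after the values were seen, so it is a description with no test.

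Other measures of Cluster 1 are given beside its Nxph1 level. The share of Cluster 1 nuclei with at least 1 Nxph1 UMI was 22.8% to 70.9% in saline embryos and 8.91% to 18.6% in EtOH embryos, and the median UMIs of these nuclei were 6137 to 8665 and 3988 to 6463. S2-4, the saline embryo with the lowest share, also had the lowest saline median. Most positive nuclei held few Nxph1 UMIs, since 10 of 2432 saline nuclei and 4 of 1934 EtOH nuclei had 10 or more. The summed level of the 7 interneuron markers in Cluster 1 was 65.9 to 202 CPM in saline and 53.1 to 112 CPM in EtOH, with 0 of 4 tested genes called, where 3.26% of all genes tested in Cluster 1 were. The 7 medial eminence markers summed to 203 to 386 CPM and 115 to 194 CPM, so these groups did not overlap, and 1 of 3 tested, Sox6, was called lower (log2 fold change -1.34, adjusted p = 0.0243). The 6 striatal markers summed to 435 to 558 CPM and 362 to 460 CPM, with 2 of 4 called lower, Rarb (-1.20) and Ebf1 (-1.41). The 5 caudal eminence markers summed to 119 to 386 CPM and 98.4 to 243 CPM, with 0 of 3 called. Of 3 intermediate progenitor markers, 1 was called lower, Neurog2 (-0.72, adjusted p = 0.0462). Of the 5 projection neuron markers, 1 was called lower, Neurod2 (-0.69, adjusted p = 0.0433), while their sum had a median of 2520 CPM in saline and 2530 CPM in EtOH. None of these lists had a marker at 0 in every embryo of both groups together, and zeros within a single group were not counted. The part of depth, of free RNA and of other cell types in the lower Nxph1 of Cluster 1 was not tested.

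**Figure D5:**
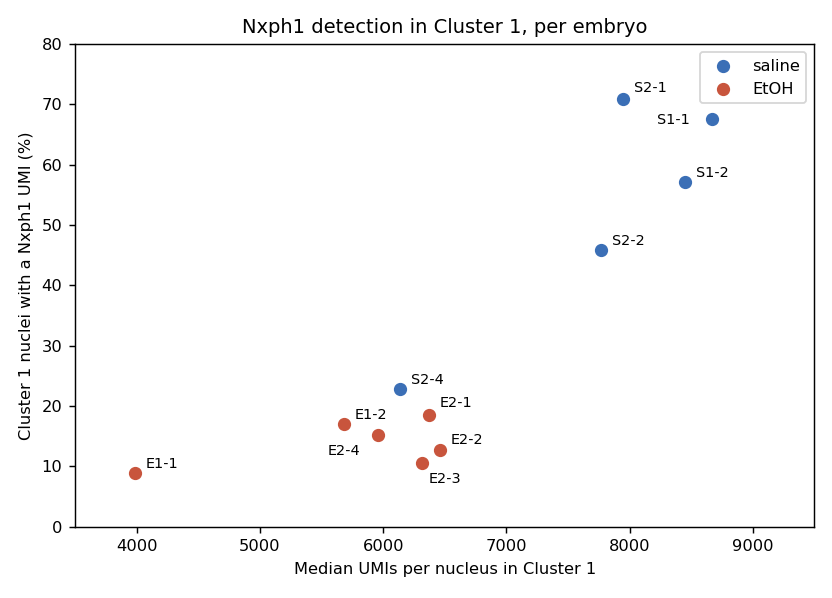
Share of Cluster 1 nuclei with at least 1 Nxph1 UMI (y axis, percent, unthinned) against the median UMIs per nucleus of the same cluster (x axis), with 1 point per embryo. The 6 EtOH embryos lie between 8.91% and 18.6%, S2-4 at 22.8%, and the other 4 saline embryos between 45.8% and 70.9%, at higher depth.

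Nxph2 was the member most restricted to interneuron clusters, which held 92.1% of its 9132 UMIs. Its level was 262 ± 60.1 CPM in Cluster 5 and 35.2 ± 21.5 CPM in Cluster 15, and Cluster 19 followed at 7.55 CPM. Both steps were larger than the spread, and no neighbours below them differed beyond it. In Cluster 5, 1309 of 3809 nuclei (34.4%) carried Nxph2, with a median of 4 UMIs among those and a maximum of 78. The thinned share was 23.4% in Cluster 5 and 0.483% in Cluster 1.

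Saline embryos had Nxph2 levels of 254 (S1-1), 279 (S1-2), 198 (S2-1), 265 (S2-2) and 213 CPM (S2-4) in Cluster 5. EtOH embryos had 380 (E1-1), 353 (E1-2), 208 (E2-1), 210 (E2-2), 290 (E2-3) and 238 CPM (E2-4). The 2 highest were the EtOH embryos of batch 1, and the groups overlapped. The log2 fold change was 0.14 ± 0.19 (adjusted p = 0.721). In Cluster 15 it was 42.5 ± 24.8 CPM in saline and 29.1 ± 18.2 CPM in EtOH (log2 fold change -0.42 ± 0.49, adjusted p = 0.763).

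None of the 14 comparisons of shares of thinned nuclei, made for each member in the summed interneurons and in its highest cluster, had an exact permutation p under 0.05. Without thinning, Nxph1 in the interneurons did, with 72.3% of nuclei in saline and 52.4% in EtOH (exact permutation p = 0.00433). After thinning these were 49.4% and 45.2% (exact permutation p = 0.19). The CPM of Nxph1 in the same nuclei was 2498 ± 299 in saline and 2921 ± 751 in EtOH.

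Members were also counted together in single interneuron nuclei. Of thinned nuclei with an Sst UMI (10 to 49 per embryo), 7.63% ± 7.33 carried Npy, against 1.13% ± 0.447 of those without, and the first was higher in 9 of 11 embryos. Nxph1 was found in 74.2% of nuclei with Sst against 46.5% without, and in 82.3% of nuclei with Npy against 46.6% without, both in 11 of 11 embryos. Within Cluster 5 alone these shares were 94.8% and 92.1% for Sst, and 95.8% and 92.1% for Npy. Nxph2 was found in 16.98% of nuclei with Nxph1 and in 0.432% without, in 11 of 11 embryos. Of the 42 ordered pairs, 6 were higher in every embryo. These were Nxph1 with Sst, with Npy and with Nxph2, each counted in both orders, which always agree in direction. Within Cluster 5 alone, where the mix of clusters does not enter, 14 of 174 nuclei with Sst carried Npy (8.05%, against 2.92% without), while 1 of 174 carried Pnoc. Nxph2 was in 19.5% of Cluster 5 nuclei with Sst and in 23.6% without, and in 15.97% with Npy and 23.6% without, so these pairs shared a cluster with no higher share in the same nuclei. These shares are given with no test.

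Over the 25 cluster means on a log2(CPM + 1) scale, and among 11621 genes with at least 10 CPM in some cluster, Sst was most like Nxph2 (Pearson r = 0.797), Npy (0.777) and Ism1 (0.766). Npy was most like Arl5a (0.787), Sst (0.777) and Ism1 (0.738), and Nxph2 was most like Gm31218 (0.924), Ism1 (0.845) and Sst (0.797). Pnoc was nearest to Gad1 (0.806), which makes GABA, Slc32a1 (0.790), which loads it into vesicles, and Nrxn3 (0.784). Nxph1 was nearest to Dpp10 (0.847), Prkcq (0.842) and Rbms3 (0.833), Cck to Gm43122 (0.675), Pappa2 (0.656) and Runx1 (0.651), and Nos1 to Fam49a (0.927), 4921511I17Rik (0.926) and Cabp1 (0.905). The clusters share libraries and depth, and these values are a description of 25 points.

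Receptors and partners of these products were also measured. Of 23 genes on that list, 19 were in the tables and 14 were tested, in 239 pairs of a gene and a cluster, with 0 called higher and 7 called lower, beside the 0.792% called in both directions over all genes and clusters. The median log2 fold change was -0.08, beside 0.01 over all tests. Gucy1a2, a subunit of the nitric oxide receptor guanylate cyclase, made up 5 of the 7 (Clusters 2, 3, 4, 8 and 12), with log2 fold changes from -0.51 to -0.33. In Cluster 3 it was 474 ± 65.4 CPM in saline and 348 ± 30.4 CPM in EtOH and the groups did not overlap (adjusted p = 0.0319). Prkg1, a kinase driven by cyclic GMP, was called lower in Cluster 1, at 46.2 ± 11.4 and 25 ± 8.06 CPM (log2 fold change -0.87 ± 0.22, adjusted p = 0.0493). Of the 11 fits with an embryo left out, Gucy1a2 kept its call in 3 in Cluster 3 and in 1, that without S2-4, in Clusters 2, 4, 8 and 12, as did Prkg1 in Cluster 1. The highest adjusted p over these fits was 0.143, and each fold change stayed below 0.

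The peptide receptors had their own pattern over the clusters. The somatostatin receptor Sstr2 was highest in projection neuron Cluster 9, at 86.0 ± 15.9 CPM, while Npy2r was highest in Cluster 5, at 9.63 ± 3.57 CPM, and Npy1r in interneuron Cluster 18, at 15.1 ± 11.6 CPM. Cckar was highest in Cluster 6 (4.91 ± 1.63 CPM) and Cckbr in Cluster 22 (3.44 ± 3.93 CPM), and the nociceptin receptor Oprl1 in Cluster 24 (10.7 ± 7.11 CPM). In all nuclei summed, 2 of 18 tested genes of the list were called, beside 12.1% of all genes. Npy1r was called higher in EtOH, at 0.558 ± 0.0915 and 0.889 ± 0.155 CPM (log2 fold change 0.61 ± 0.19, adjusted p = 0.0374), and Gucy1a2 lower (-0.36 ± 0.10, adjusted p = 0.0247). With each embryo left out in turn, Npy1r kept its call in 4 of 11 fits (adjusted p up to 0.09) and Gucy1a2 in 7 of 11 (up to 0.0681). The neurexin Nrxn3 was highest in Cluster 23.

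Of 8 genes that process or store peptides, all were tested, in 126 pairs, with 0 called higher and 1 lower, a share near the 0.792% over all genes. The 1 pair was Cpe, the carboxypeptidase that trims peptide precursors, in Cluster 1, at 203 ± 25.7 CPM in saline and 146 ± 13.9 CPM in EtOH with no overlap (log2 fold change -0.51 ± 0.08, adjusted p = 0.0128). Cpe kept its call with each of the 11 embryos left out. In all nuclei summed 1 of the 8 was called, beside 12.1% of all genes. Chgb, a granin of secretory granules, was called higher, at 5.68 ± 0.704 and 7.66 ± 0.778 CPM with no overlap (adjusted p = 0.0258), and in 6 of 11 fits with an embryo left out. Of the 5 other members of the neurexophilin, nitric oxide synthase and somatostatin families (Nxph3, Nxph4, Nos2, Nos3 and Cort), 2 were tested in 6 pairs, and of 6 other interneuron peptides 1 was tested in 1 pair, with 0 called in either list. Tac1, the best counted of those peptides, was highest in the striatal Cluster 11, at 31.1 ± 6.41 CPM.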

How the data were processed

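The authors deposited, for each embryo and cluster, a table of raw UMI counts per gene and nucleus, made with Cell Ranger on mm10 and filtered and clustered in Seurat, per the labels and the methods. The 275 tables held 23513 genes and whole numbers. Strand, intron counting and the Cell Ranger version are not given in the sources used here, and doublets were not called here.

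UMI counts were summed per embryo within each cluster, over the 7 interneuron clusters and over all nuclei. They were tested with edgeR 4.0.16 (TMM, filterByExpr, robust glmQLFit, treatment as the only term) in R 4.3.3, for embryos with at least 10 nuclei and at least 2 embryos per group. Benjamini-Hochberg adjustment ran over all genes of a cluster. Calls combined an adjusted p below 0.05 with a ratio of EtOH to saline over 1.25 or under 0.8. Alternatives used limma 3.58.1 and DESeq2 1.42.0, and others are in the closing section. The edgeR fit with treatment as the only term was tested on simulated data for Clusters 5 and 23 and the summed interneuron clusters. The fits of the other clusters, of all nuclei and of the other edgeR settings were not tested in this way. The simulated counts were independent between embryos, had the same dispersion for every gene and held no differences between dams or batches. They therefore do not show how the fit behaves where embryos share a dam or batch. Shares used nuclei thinned at random to 2000 UMIs and two-sided exact permutation tests in Python 3.11.15 (numpy 2.4.6, scipy 1.17.1, pandas 2.3.3, figures with matplotlib 3.10.9), with no adjustment over members. Neighbouring clusters were said to differ beyond their spread where the means differed by more than the larger of their SDs.

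Named were all members, the 3 genes most like each member across clusters, the genes called on the lists of related genes (up to 10 by smallest adjusted p in the clusters) and the highest cluster of receptors. Members and lists were chosen with earlier results of these data known. Intervals are exact binomial (Clopper-Pearson) and cover counting error only. Saline embryo S2-3 was not analysed here. Results for some genes of the lists are not reported here.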

Additional observations from a re-analysis of the deposited data

Results flagged for a closer look

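Among 42 groups of values tested for a sample far from the others, 3 had one, and chance gives about 1 in 20. Pnoc in Cluster 7 was 0 CPM in EtOH embryo E1-2, which had 55 nuclei there, while the other EtOH embryos lay between 12.9 and 18.5 CPM. Nos1 in all nuclei summed was 31.56 CPM in the same embryo, above the other EtOH embryos (23.2 to 26.3 CPM). Nxph2 in the summed interneurons was 38.53 CPM in saline embryo S2-1, below the other saline embryos (71.1 to 84.0 CPM), and S2-1 also had the largest interneuron share of nuclei, 37.7%. The log2 ratio of Nxph1 in Cluster 1 to Nxph1 in Cluster 5 was lower in EtOH than in saline, by -1.692. The 2 clusters were chosen for this contrast after their values were seen, so no test of the difference is given.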

How the results depend on the processing

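The 1 member call over the clusters became 5 with DESeq2, 0 with limma voom and the dam as a random block, 3 without the filter on low counts, 0 with batch as a term, 4 with counts summed per dam, 3 with nuclei thinned to 2000 UMIs and 0 with adjustment over all genes and clusters. It stayed at 1 with RLE normalization, with at least 30 nuclei and with the adjusted p alone. The calls over all genes and clusters moved too, from 1721 of 217253 tests in the main fit. DESeq2 called 5669 of 212906, limma voom 4877 of 217253 and the fit with batch as a term 911 of 217253. Without the filter 10729 of 519300 were called, with counts summed per dam 2112 of 292856 and with thinned nuclei 710 of 116851. Embryos share sample numbers across treatments, and same-numbered embryos also share a batch. The deviations of same-numbered embryos correlated between -0.102 and 0.0635, and no saline embryo correlated best with its same-numbered EtOH embryo. The replicate block, which took the calls over all genes and clusters from 1721 to 470, gave 2 member calls, Nxph1 in Clusters 2 and 9. All 5 DESeq2 calls were Nxph1, in Clusters 1, 2, 6, 9 and 12. Without the filter, 1 call was Pnoc in Cluster 9. Leaving out each embryo gave 0 to 9 calls, with 9 without S2-4 and 0 otherwise. In the summed interneurons it gave 0 to 1, with 1 (Npy) without S2-4, and no other setting moved that count or the count in all nuclei.

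Of the shares, 1 test passed without thinning (Nxph1 in interneurons) and 1 with thinning to 1000 UMIs (Nxph2 in Cluster 5). Leaving out each embryo gave 0 to 2, with Npy in interneurons and Nos1 in Cluster 1 without S2-4, Nxph1 in interneurons without E1-2 and Npy in interneurons without E2-4.

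Fold changes near 0 turned sign. Sst in Cluster 5 was -0.05 (-0.0498) in thinned nuclei. Pnoc in Cluster 7 was 0.0139 with batch as a term, 0.0638 with the replicate block and from -0.128 to 0.117 over the embryos left out, above 0 without E1-2 (0.1073), E2-1 (0.013), S1-1 (0.0435), S1-2 (0.0394) and S2-1. Nxph1 in Cluster 5 was -0.0121 without the filter, -0.0078 with the replicate block and -0.0031 without E2-3. Nxph1 in Cluster 1 stayed negative in every setting. The highest cluster was the same with pooled counts, medians and saline embryos alone for every member but Nos1. For Nos1 it was Cluster 25 with pooled counts (63.2 CPM, Cluster 1 61.9) and with saline embryos alone (61.3 CPM, Cluster 1 50.5). Peptide counts of a few UMIs per embryo limit what small clusters can show.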
